A study of Oryza sativa with 28 samples.

Results

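Broad open regions shared by all ATAC-seq libraries were chosen by merging the peak lists of 8 libraries into 82432 union regions and keeping those that held a peak of every library and reached a merged length of at least 2000 bp. There were 1368 such regions, which is 1.66% of all union regions and 3.89% of the 35183 regions shared by all 8 libraries. The other 33815 shared regions were shorter and are called compact here. Peak extent chose the members, so their lengths are given as a description.

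The plants were Wuxiang S (WXS), an indica line that carries the tms5 mutation, and every group carried it. Sterile plants, WXS(S), grew in a paddy field in summer with 14 h of light and 10 h of dark, at what the paper calls the restrictive temperature (above 22°C). Fertile plants, WXS(F), had been moved from the field to a growth chamber averaging 22°C with the same light cycle when their panicles were about 1 cm long. Young panicles were sampled at meiosis (P3) and at the uninucleate stage (P4), which gives the groups FP3, SP3, FP4 and SP4 with 2 ATAC-seq and 3 RNA-seq libraries each. Fertility type, temperature and growing place changed together, so they cannot be told apart. A whole young panicle mixes anthers with other floral tissue, and in such bulk samples fewer open cells and less open chromatin per cell cannot be told apart. OsMADS7, a floral organ identity gene and the only fixed marker that the sources used here pair with a gene ID (LOC_Os08g41950), was present in all 12 RNA-seq libraries at 31.96 to 88.94 FPKM (fragments per kilobase of gene, scaled to library size). It was not even between the types, at 31.96 to 37.11 FPKM in FP3 and 71.29 to 88.94 in SP3. At P4 it had 48.07 to 53.03 FPKM in FP4 and 56.63 to 68.91 in SP4, so sterile libraries lay above fertile ones at each stage.

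In ATAC-seq the Tn5 transposase inserts adapters into DNA that is not packed around nucleosomes, and clusters of insertions are called as Tn5 transposase hypersensitive sites (THSs). Most THSs of a plant genome are short and lie beside genes, where bound transcription factors keep nucleosomes away. A long merged region can be a single long THS, or a chain of short THSs whose ends meet only when lists of several libraries are laid over each other. TMS5, the gene mutated in this line, encodes an RNase Z that cuts messenger RNAs of ubiquitin fusion genes and so links temperature to pollen fertility.

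Among the sequences of differential THSs at hand from the study, 1 lay inside a member, and it is shown as the only stretch of a member whose bases could be read. The member was chr1:29559311-29562065 (MSU7, 2755 bp), and the study's annotation placed an overlapping THS in the 2 kb upstream of LOC_Os01g51410. The sequence began 645 bp inside the member and was 318 bp long, from 29559956 to 29560273, of which the first 300 bases follow as the study's sheet gives them, with a match to GGCGGC, the reverse complement of GCCGCC, in capitals.
chr1:29559956-29560255: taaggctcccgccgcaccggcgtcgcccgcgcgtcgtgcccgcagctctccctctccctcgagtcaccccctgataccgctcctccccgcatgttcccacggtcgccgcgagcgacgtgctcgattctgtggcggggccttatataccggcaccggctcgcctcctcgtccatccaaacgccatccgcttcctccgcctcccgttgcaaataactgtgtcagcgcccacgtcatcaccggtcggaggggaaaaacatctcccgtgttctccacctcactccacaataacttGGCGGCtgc
Its 318 bases had a GC content of 64.2% and 37 CpG dinucleotides, and the 552 different sequences at hand had a median GC content of 48.8%. GCCGCC or its reverse complement occurred in 24.5% of these 552 sequences, whose median length was 307 bp. GAGAGAGA (2.90%), CACGTG (10.9%), AAACCCTA (1.27%), TGGGCC (23.4%) and CTATAAA (3.08%), each searched on both strands, occurred in others of the 552 but not in this one. A match is a run of letters and was not tested as a binding site. LOC_Os01g51410 itself had 9.39, 11.39 and 10.7 FPKM in FP3, 10.57, 9.1 and 10.08 in SP3, then 20.04, 18.74 and 18.57 in FP4 and 17.29, 15.39 and 17.34 in SP4. All P4 libraries lay above all P3 libraries, with log2 fold changes of 0.89 ± 0.09 in FP4 versus FP3 and 0.81 ± 0.15 in SP4 versus SP3, both under the limit of 1.

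Members were mostly just over the limit. Their merged length had a median of 2350 bp and quartiles of 2137.75 and 2749.5 bp, and 847 of them (61.9%) were shorter than 2500 bp. Only 237 reached 3000 bp, 46 reached 4000 bp and 20 reached 5000 bp. The longest had 9307 bp. The compact regions had a median length of 775 bp. Together the members spanned 3.51 Mb, or 6.36% of the summed length of all union regions, against 28.9 Mb for the compact regions. The pair of shortest members, chr3:1560961-1562960 and chr7:21842595-21844594, measured 2000 bp, and the pair just under the limit, chr1:21944192-21946190 and chr2:31153350-31155348, measured 1999 bp. In the former pair a library covered between 1536 and 1996 bp with peaks, and in the latter between 1340 and 1985 bp, so covered lengths overlapped across the limit.

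**Figure D1:**
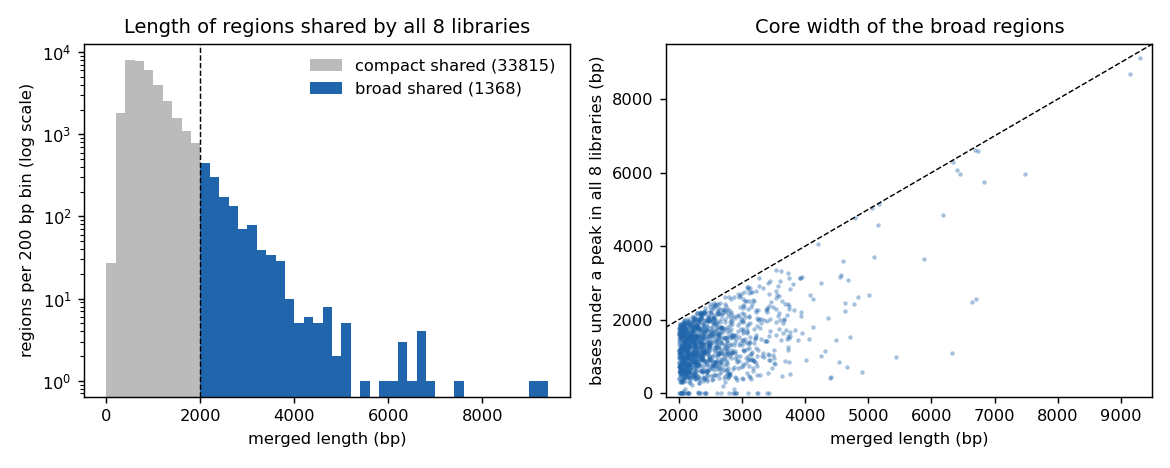
Left, merged length in bp of the 35183 regions shared by all 8 libraries, in bins of 200 bp with the number of regions on a log scale, grey for compact and blue for broad regions, and the 2000 bp limit dashed. Right, merged length of each of the 1368 broad regions against the bases under a peak in all 8 libraries, with equality dashed; most points lie well below the line and several of the longest regions lie close to it.

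The core of a member, the bases under a peak in all 8 libraries at once, had a median of 1310.5 bp, or 54.2% of the merged length (quartiles 35.9 and 72.7%). In the compact regions the core took a median of 63.8% of the length. The longest unbroken core run of a member had a median of 927.5 bp. It reached 2000 bp in 95 members (6.94%), reached 1000 bp in 619 (45.2%) and stayed under 500 bp in 178. In 32 members no base at all was under a peak in every library. The core was wider than that of the compact regions, which had a median of 436 bp, and most members also had flanks that differed among libraries.

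Chains of peaks were common. In 323 members (23.6%) every library had a single peak, in 115 (8.41%) every library had 2 or more, and in the remaining 930 (68.0%) the libraries differed in the number of peaks. The most that 1 library placed in a member was 4. A single peak of at least 2000 bp was present in all 8 libraries for 115 members and in no library for 326 (23.8%). Such single peaks were found in 699 and 647 members for the FP3 replicates and in 495 and 418 for the FP4 replicates. They were found in 327 and 245 members for the SP3 replicates and in 335 and 444 for the SP4 replicates. FP3 was highest in both replicates, and FP4 replicate 2 lay below SP4 replicate 2.

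The outer edges of a member also moved among libraries. Over both edges of all members, the distance between the innermost and outermost position of the 8 libraries had a median of 266 bp, against 105 bp in the compact regions. Both edges stayed within 150 bp in 213 members (15.6%) and in 49.6% of the compact regions. Both moved by more than 500 bp in 133 members (9.72%).

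The longest members departed from this picture. Of the 20 members of at least 5000 bp, 9 had a core of at least 90% of their length, against 82 of all 1368 members (5.99%), and 11 had a single peak in every library. The longest, chr4:32883334-32892640, was covered over 9256 and 9160 bp in FP3, 9123 and 9229 bp in SP3, then 9246 and 9114 bp in FP4 and 9204 and 9124 bp in SP4. The groups overlapped and every library covered nearly the whole region. The next, chr9:4723348-4732484, was covered over 8695 and 8799 bp in FP3, 8710 and 8760 bp in SP3, then 8863 and 8842 bp in FP4 and 9053 and 8926 bp in SP4. Here the 4 P4 libraries lay above the 4 P3 libraries, by little of the region's length.

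The tightest agreement was on chromosome 1. The member chr1:33582426-33587592 (5167 bp) was covered over 5158 to 5167 bp in the 8 libraries, and chr1:33534630-33539687 (5058 bp) over 5040 to 5058 bp, so their edges fell within a few bases of each other in all libraries. With chr1:33516200-33522534 (6335 bp, covered over 6301 to 6329 bp) and 1 shorter member, they lay in a stretch of 71.4 kb. A stretch of 41.3 kb on chromosome 9, from 4691173 to 4732484, held 3 members, all longer than 5000 bp. A stretch of 32.1 kb on chromosome 12, from 20638200 to 20670322, held 3 members, 2 of them longer than 5000 bp. These stretches were formed by joining members no more than 50 kb apart. The other long members on chromosome 9 at this site, chr9:4691173-4697863 (6691 bp) and chr9:4705066-4711463 (6398 bp), were covered over 6626 to 6686 bp and 6077 to 6346 bp. In chr12:8538418-8545904 (7487 bp) FP4 replicate 1 and SP4 replicate 1 reached 7303 and 7435 bp, and the other 6 libraries covered 6044 to 6181 bp. In chr9:13606817-13613644 (6828 bp) FP3 replicate 1 and FP4 replicate 1 reached 6686 and 6696 bp, and the other 6 covered 5847 to 5981 bp. The extra length in these last regions thus came from 1 replicate of a group and not from both.

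Not all long members were of this kind, since 4 of the 20 had a core under 40%. In chr4:19991168-19997875 (6708 bp), SP3 replicate 2 covered 2642 bp while SP3 replicate 1 covered 5918 bp and the other libraries covered 5990 to 6656 bp. In chr8:28265791-28272428 (6638 bp) FP3 replicate 2 was lowest with 2502 bp and SP3 replicate 2 highest with 6623 bp. In chr1:42182995-42188439 (5445 bp) the FP4 replicates covered 1534 and 3900 bp. Replicates of the same group differed widely in these 3 regions. In the remaining one, chr4:26572781-26579108 (6328 bp), the SP3 replicates were close to each other and lowest, with 1805 and 1912 bp, and the other 6 libraries covered 3353 to 4933 bp.

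**Figure D2:**
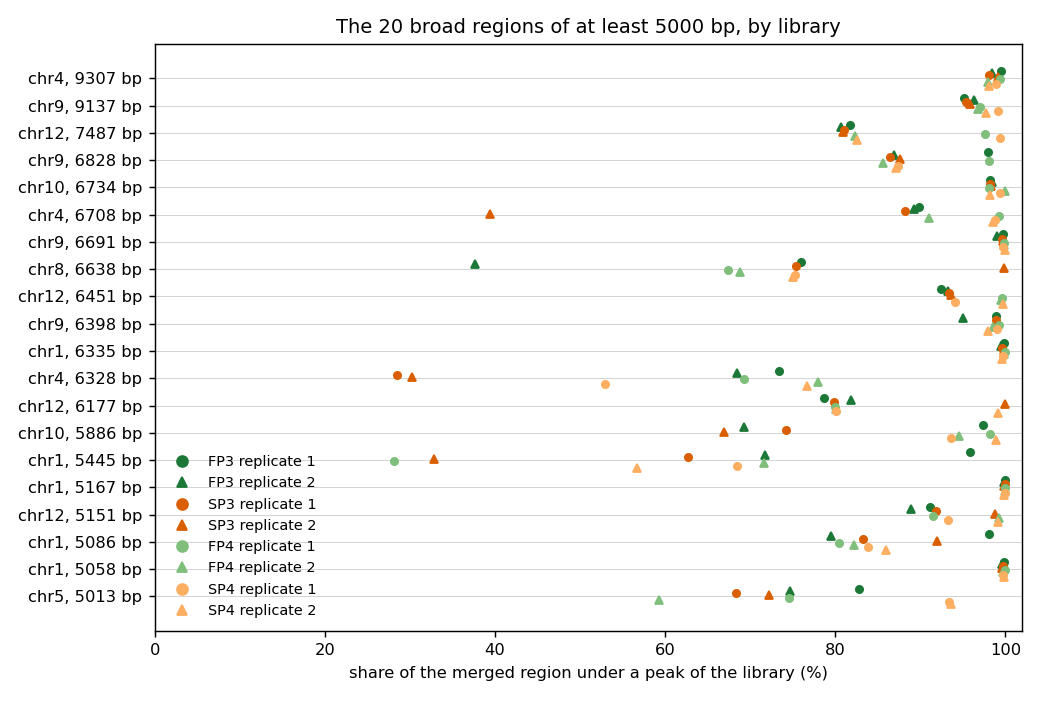
Share of the merged region under a peak of each library, in percent, for the 20 broad regions of at least 5000 bp, longest at the top and labelled by chromosome and length. Circles are replicate 1 and triangles replicate 2, coloured by group; 9 regions have a core of at least 90%, and 4 have a core under 40%, where the libraries scatter.

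Peak scores, which the rule did not use, are the negative log10 of the peak caller's p-value times 10 and depend on read depth. The median top score of members was 418.6 and 454.7 in FP3, 322.6 and 326.6 in SP3, then 351.7 and 373.2 in FP4 and 356.9 and 408.6 in SP4. The compact regions had medians between 198 and 249, so in each library the median of members lay above that of compact regions. A top score is the highest among the peaks of a region, and members were chosen on peak extent. How far the length or number of peaks enters this difference was not tested. A top score of at least 100 was reached by 93 to 99.1% of members and by 84.2 to 91.2% of compact regions. In members of at least 5000 bp the median ran from 400.4 in SP4 replicate 1 to 2214 in FP4 replicate 2, and in shorter members from 318.3 to 453.1. Even coverage did not mean even scores. The longest member, chr4:32883334-32892640, had top scores of 122.12 in SP4 replicate 1, 142 in FP3 replicate 1, 828.93 in FP3 replicate 2 and 1168.65 in SP4 replicate 2. It scored 3100 in the other 4 libraries. Both chromosome 1 members of 5167 and 5058 bp scored 3100 in all 8 libraries, a value at or above which each library held only 18 to 29 peaks. Exactly 3100 recurred in other long members, such as in 3 libraries of chr1:33516200-33522534, so equal scores at this value are not read as equal signal. A higher score, 3182.23, occurred in FP3 replicate 1 of chr9:4705066-4711463.

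Members were spread over all 12 chromosomes but unevenly. Chromosome 3 held 182 and chromosome 1 held 213, or 5 and 4.92 per Mb up to the last peak, and chromosome 11 held 40, or 1.38 per Mb. Shared regions of any length were also sparser there, at 68 per Mb on chromosome 11 against 116 on chromosome 3. As a share of shared regions, members made up 5.54% on chromosome 4 and 2.03% on chromosome 11, with the other chromosomes between 2.85 and 4.69%. The median member length ran from 2282.5 to 2444 bp among chromosomes. The most crowded stretch, on chromosome 4 from 27997102 to 28211536, held 8 members in 214.4 kb, and 5 other stretches of 5 or 6 members lay on the same chromosome. A member lay a median of 58.3 kb from the next member, and 336 members (24.6%) had another within 20 kb. The nearest union region of any kind was a median of 1.27 kb away, against 0.929 kb for compact regions.

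Peak extent chose the members, so the length of peaks in them is given for each library as a description, with no test. The mean length under peaks per member was 2306.5 and 2255.6 bp in FP3, 1954.3 and 1841.8 bp in SP3, then 2097.4 and 2096.0 bp in FP4 and 1905.2 and 2093.9 bp in SP4. All 4 fertile values lay above all 4 sterile values, but FP4 replicate 2 and SP4 replicate 2 nearly met. The means were 2188.9 ± 108 bp for fertile and 1948.8 ± 107 bp for sterile libraries (SD, n = 4), a ratio of 1.12. Within P3 the ratio was 1.20, with FP3 at 2281.1 and SP3 at 1898.1 bp. Within P4 it was 1.05, with FP4 at 2096.7 and SP4 at 1999.5 bp.

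Total peak length also differed among libraries, with overlap between the types, and its part in these values was not tested. Total peak length was 39.2 and 39.7 Mb in FP3, 32.6 and 31.2 Mb in SP3, then 35.9 and 36.5 Mb in FP4 and 33.4 and 37.6 Mb in SP4. SP4 replicate 2 lay above both FP4 libraries. In the compact regions the mean length under peaks was 719.27 ± 19.7 bp in fertile and 675.51 ± 27.1 bp in sterile libraries (SD, n = 4), a ratio of 1.06. The percentage of each region covered, members minus compact regions, averaged 1.38 points in fertile and −4.03 points in sterile libraries, a difference of 5.4 points, which the division by merged length also enters. Members took 7.62 to 8.20% of the peak bases of a library. The SP3 libraries, at 8.20 and 8.06%, had the highest shares, although SP3 had the lowest group mean of covered bases in members. SP4 replicate 1 covered the members less than SP3 replicate 1 did.

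**Figure D3:**
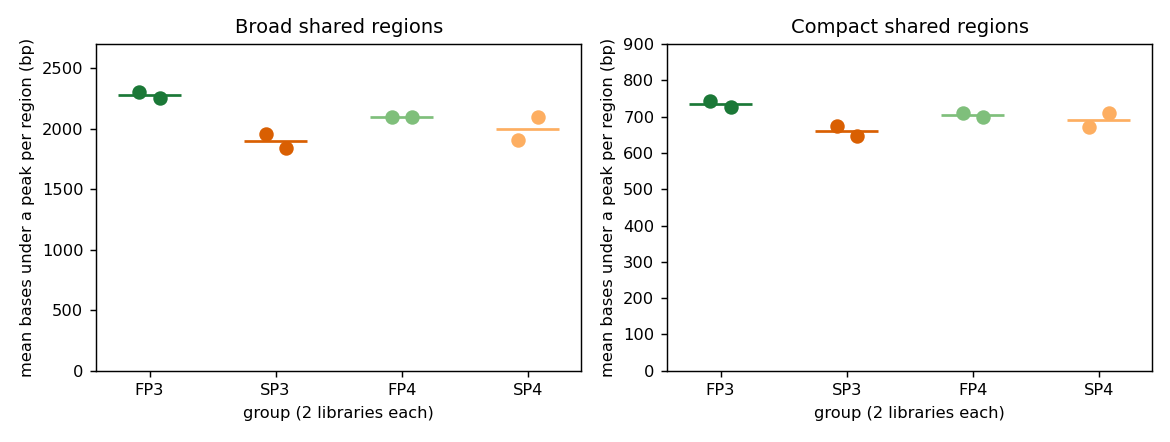
Mean bases under a peak per region, in bp, for broad (left) and compact (right) shared regions, with 1 point per library and a line at the group mean of 2 libraries. In the broad regions both FP3 libraries are highest, at 2306.5 and 2255.6 bp, and SP4 replicate 2, at 2093.9 bp, nearly meets the FP4 libraries.

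The peaks that choose the members are also the ones measured in them. The types were therefore tested only on broad regions chosen from the 4 libraries of one replicate number and measured in the 4 of the other. This does not free the measure from the choice. Long single peaks were most frequent in FP3 of both replicate numbers, so the choice can favour regions where FP3 peaks are long. The values hold only for regions chosen this way. Regions chosen on replicate 1 (1123 regions) were covered by 88.3% in FP3, 73.8% in SP3, then 83.5% in FP4 and 83.9% in SP4 of replicate 2. Regions chosen on replicate 2 (1067 regions) were covered by 91% in FP3, 78.6% in SP3, then 83.7% in FP4 and 75.6% in SP4 of replicate 1. FP3 was above SP3 in both, whereas FP4 was above SP4 in only 1 of the 2. The means were 86.6 ± 3.67% and 78.0 ± 4.4% for fertile and sterile libraries (SD, n = 4), a difference of 8.68 points. The exact permutation test within replicate numbers gave p = 0.111. Its smallest possible p was 0.0556, so it could not fall under 0.05 with any data and decides nothing here.

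For the stages the same test, with the same smallest possible p, gave a P4 minus P3 difference of −1.27 points (exact permutation p = 0.833). As a description of the members themselves, the mean length under peaks was 2048.1 ± 95.3 bp at P4 and 2089.6 ± 227 bp at P3 (SD, n = 4). In fertile libraries P4 was lower than P3, at 2096.7 against 2281.1 bp, and in sterile libraries P4 had 1999.5 against 1898.1 bp with overlapping replicates. The sign of the pooled stage difference turned when an FP3 library or SP4 replicate 1 was left out, giving 30.87, 13.9 and 6.193 bp in favour of P4.

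Single members varied in both directions. In 140 of 1368 members (10.2%) all 4 fertile libraries covered more bases than all 4 sterile libraries, where 5.22% of all shared regions did so. The reverse order occurred in 13 members (0.950%), where 1.26% of all shared regions did so. All 4 P3 libraries lay above all 4 P4 libraries in 26 members (1.90%, against 1.29% of all shared regions), and the reverse occurred in 60 (4.39%, against 3.4%). Covered length also entered the choice of members, so these shares are descriptions and nothing is read from them.

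The following regions were picked after their values were seen, as those of largest difference between the types without overlap. In chr8:2770737-2773885 the covered length was 3080 and 3053 bp in FP3, 3146 and 1784 bp in FP4, 1063 and 1160 bp in SP3 and 1429 and 1478 bp in SP4. FP4 replicate 2 was nearer to the sterile libraries than to the other fertile ones. In chr1:39725131-39727992 every library had a single peak, of 2482 to 2862 bp in the fertile and 1159 to 1360 bp in the sterile libraries. The opposite order was clearest in chr2:27247067-27250145, again a single peak per library, of 1668 to 1906 bp in the fertile and 2963 to 3051 bp in the sterile libraries. In both of the latter regions replicates were close and the gap between types was wider than the spread within them.

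**Figure D4:**
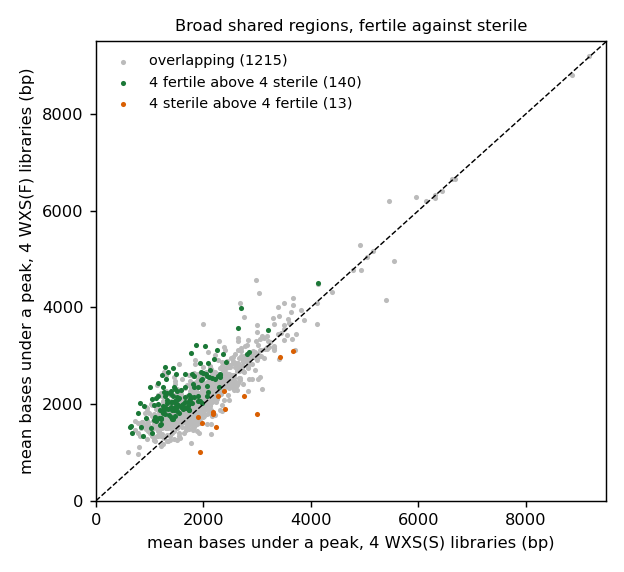
Mean bases under a peak in the 4 WXS(S) libraries against the 4 WXS(F) libraries for each of the 1368 broad regions, in bp, with equality dashed. Green marks the 140 regions where all fertile libraries lay above all sterile ones and orange the 13 of opposite order; points lie on both sides of the line, and several regions over 5000 bp also lie off it.

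Genes could be placed at members only through the study's own annotation of differential THSs, of which a shortened copy was used and which covers THSs selected for differing between types. It reached 34 members on 7 chromosomes, 2 of them as intergenic only, and placed 63 genes at 32 members (2.34% of all). Each of these 32 members overlapped a differential THS, also where its covered length was even among libraries. Overlapping THSs were annotated in the body of 28 genes, only in the upstream 2 kb of 21 and only in the downstream 2 kb of 14. A member can reach further than such a THS, so places given for members below are those of the THS. RNA values were at hand for 59 of the 63. These genes are no sample of all members, and a role is given below only where the study's tables name one.

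Genes at members ranged from almost no RNA to among the most abundant. Their mean FPKM over 12 libraries had a median of 3.70, and 37 of 59 (62.7%) exceeded 1 FPKM, beside 38.1% of all 47919 genes in the table (median 0.152). At members of at least 5000 bp the median was 13.1 FPKM over 20 genes, and at shorter members 3.02 FPKM over 39. The order turned on the log2(FPKM + 0.1) scale, where the medians were 0.95 and 1.57. The highest were LOC_Os01g15270 (mean 2030 FPKM), LOC_Os12g34014 (1940 FPKM), LOC_Os01g58010 (1700 FPKM), LOC_Os12g14930 (1080 FPKM) and LOC_Os12g34018 (391 FPKM).

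At the long member chr10:20469367-20476100 (6734 bp), the study's Gene Ontology lists name photosynthesis for LOC_Os10g38216 and LOC_Os10g38229, the latter also thylakoid, the membrane that carries the photosystems. They name translation and ribosome for LOC_Os10g38214 and LOC_Os10g38238. Photosynthesis and thylakoid are also named for LOC_Os02g24628 at chr2:14282624-14286533 (3910 bp), and generation of energy and precursor metabolites for LOC_Os12g34014 at chr12:20531555-20538005 (6451 bp). These lists were held in shortened form, so a missing term says nothing, and 8 of the 63 genes had one of the terms looked up. Plant nuclear chromosomes carry copies of plastid DNA. The paper reports that most ATAC-seq reads mapped to organelle genomes. The authors discarded these reads and those that mapped to more than 1 place. Whether organelle reads remain in the peaks of these members was not tested. Whether these members hold copies of plastid DNA was not examined, since no genome sequence was used here.

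The chr10 member was covered over 6606 to 6732 bp in all 8 libraries. Covered length does not measure signal, and the study listed a THS there as differing between types. The genes at this member did not move together. LOC_Os10g38234 had 109.71, 107.52 and 96.67 FPKM in FP3, 55.65, 45.61 and 57.66 in SP3, then 300.43, 261.68 and 238.36 in FP4 and 125.11, 103.92 and 116.19 in SP4. FP4 was highest, without overlap with any other group. It was higher in FP4 than in SP4 (log2 fold change 1.23 ± 0.08 SE, adjusted p = 5.25e-05), in FP4 than in FP3 (1.39 ± 0.06, adjusted p = 8.93e-06) and in SP4 than in SP3 (1.18 ± 0.19, adjusted p = 0.00411). In FP3 versus SP3 it passed narrowly (1.04 ± 0.18, adjusted p = 0.00506), and leaving out FP3 replicate 2, SP3 replicate 1 or SP3 replicate 2 put the fold change at 0.99, 0.98 or 0.85, under the limit of 1.

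Of its 4 neighbours, 2 were lower in FP3 than in SP3. LOC_Os10g38214 had 40.33, 40.25 and 36.03 FPKM in FP3 and 138.01, 158.41 and 69.88 in SP3, and fell by 1.52 ± 0.20 on the log2 scale (adjusted p = 0.0014). LOC_Os10g38216 had 9.42, 9.77 and 7.65 FPKM in FP3 and 24.84, 31.44 and 13.7 in SP3, and fell by 1.26 ± 0.22 (adjusted p = 0.00443). In both genes SP3 replicate 3 was the lowest SP3 library. LOC_Os10g38238 had a log2 fold change of 0.33 ± 0.09 in FP3 versus SP3 (adjusted p = 0.0204), under the limit of 1, and LOC_Os10g38229 one of 1.84 ± 2.35 (adjusted p = 0.568). LOC_Os10g38238 was higher in FP4, at 571.14, 517.9 and 483.53 FPKM, than in FP3, at 251.49, 263.81 and 233.84 FPKM (1.11 ± 0.05, adjusted p = 9.42e-06).

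On chromosome 12, LOC_Os12g34014 had 2900.4, 2983.46 and 2658.68 FPKM in FP3, 1266.32, 1429.89 and 1119.3 in SP3, then 2645.29, 2524.08 and 2279.14 in FP4 and 1198.4, 1144.76 and 1184.46 in SP4. All 6 fertile libraries lay above all 6 sterile ones. The log2 fold change was 1.25 ± 0.10 in FP3 versus SP3 (adjusted p = 0.000255) and 1.09 ± 0.04 in FP4 versus SP4 (adjusted p = 2.88e-06). By limma on log2(FPKM + 1) the former had an adjusted p of 0.124, and without scaling factors the latter was 0.99, just under the limit. The member itself was covered over 5959 to 6428 bp in fertile and 6021 to 6430 bp in sterile libraries. These lengths overlapped, although the study listed a THS there as differing between types.

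Several genes at the longest members scattered among replicates of the same group. LOC_Os12g14930, at chr12:8538418-8545904 (7487 bp), had 3.48, 127.51 and 1821.25 FPKM in FP3, 3125.21, 300.82 and 2060.96 in SP3, then 105.15, 88 and 1356.93 in FP4 and 2064.43, 148.09 and 1812.01 in SP4. LOC_Os12g34018 had between 75.02 and 1278.84 FPKM in FP3, 6.43 and 431.05 in SP3, then 4.53 and 1106.68 in FP4 and 38.59 and 866.26 in SP4. All 4 groups overlapped for each. LOC_Os12g34012 had 449.89 FPKM (22492 estimated counts) in SP3 replicate 1 and at most 0.04 FPKM in the other 11 libraries. LOC_Os01g57962 had 287.63 FPKM in FP4 replicate 1, 118.48 in SP4 replicate 1 and was listed at 0 in the other 10. LOC_Os10g38229 had 0.1 FPKM in FP3 replicate 3 and 0.07 and 0.08 in SP3 replicates 1 and 2, while its other 9 libraries had 31.92 to 179.6 FPKM.

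Among genes with a mean above 1 FPKM, the widest ratio of the highest to the lowest replicate within any group, after adding 0.1 FPKM, exceeded 10 in 5 of 14 genes at members of at least 5000 bp, in 0 of 23 genes at shorter members and in 467 of 18234 genes of the table (2.56%). How the counting step shared reads among similar gene copies is not given in the sources used here, so levels of these genes are uncertain. The same holds for their neighbours at the same members, such as LOC_Os10g38214, LOC_Os10g38234 and LOC_Os12g34014. LOC_Os10g38229 was higher in FP4 than in SP4 (1.30 ± 0.08, adjusted p = 3.85e-05), but the same difference had an adjusted p of 0.603 when all 12 libraries shared 1 estimate of the spread.

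**Figure D5:**
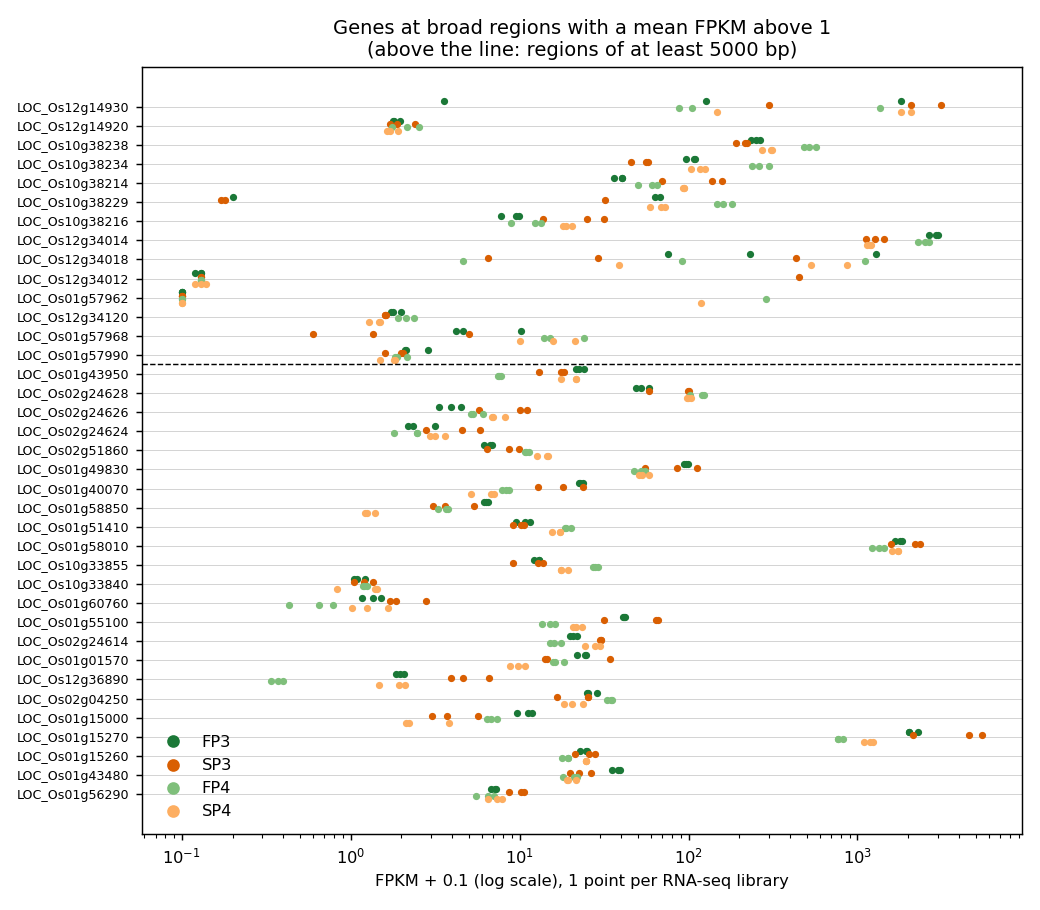
FPKM plus 0.1 on a log scale for the 37 genes at broad regions with a mean above 1 FPKM, 1 point per RNA-seq library and 3 per group, ordered by region length with the 14 genes at regions of at least 5000 bp above the dashed line. The 5 genes with a within-group ratio above 10 all lie above the line.

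Counts of called genes were close to those of all genes between the fertility types. Calls required a log2 fold change beyond 1 in either direction together with an adjusted p under 0.05. In FP3 versus SP3, of 41 genes tested, 6 were higher (14.6%, against 14.8% of all genes tested) and 4 lower (9.76%, against 6.74%). In FP4 versus SP4, of 40 tested, 6 were higher (15.0%, against 15.4%) and 3 lower (7.50%, against 6.87%). Between stages, which reuse the same libraries, 5 of 41 were higher in FP4 than in FP3 (12.2%, against 12.9%) and 7 lower (17.1%, against 6.13%). In SP4 versus SP3, of 40 tested, 2 were higher (5%, against 12.8%) and 5 lower (12.5%, against 6.85%). The median log2 fold change of the genes tested was 0.13, 0.04, −0.16 and −0.07 in this order, beside 0.04, 0.00, −0.02 and 0.03 over all genes.

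Genes at shorter members that differed between the types included LOC_Os01g15000, LOC_Os01g54270 and LOC_Os01g01560, which were higher in FP3 than in SP3, and LOC_Os12g36890, which was lower. LOC_Os01g15000, annotated as Formin-like protein 16 (formins build actin filaments), had the 2059 bp member upstream (core 1652 bp). It had 11.74, 11.04 and 9.57 FPKM in FP3 and 5.57, 3.63 and 2.93 in SP3 (1.51 ± 0.20, adjusted p = 0.00161), and 6.68, 7.29 and 6.31 in FP4 and 3.71, 2.04 and 2.12 in SP4 (1.37 ± 0.21, adjusted p = 0.00183). Fertile and sterile replicates did not overlap at either stage.

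LOC_Os01g54270 is annotated as a carotenoid cleavage dioxygenase 8 homolog, an enzyme of strigolactone synthesis. The 2005 bp member placed in its body had a core of 0 bp, so no base was under a peak in every library. The RNA level of LOC_Os01g54270 was low, at 0.76, 0.37 and 0.83 FPKM in FP3 and 0.18, 0.11 and 0.3 in SP3 (2.15 ± 0.45, adjusted p = 0.00936). With limma on log2(FPKM + 1) the value was 0.46 (adjusted p = 0.0671). It was also called in FP4 versus SP4 (1.82 ± 0.28, adjusted p = 0.00211), where its levels of 0.06 to 0.37 FPKM were lower still. LOC_Os01g01560, annotated as a putative AC transposase after a maize protein, had the 2157 bp member upstream (core 590 bp). It had 0.7, 0.85 and 0.63 FPKM in FP3 and 0.42, 0.18 and 0.14 in SP3 (1.55 ± 0.37, adjusted p = 0.015). That call was lost without FP3 replicate 2 (1.35, adjusted p = 0.0674) or SP3 replicate 2 (1.39, adjusted p = 0.0606).

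LOC_Os12g36890, for which the study lists the Golgi apparatus, has a 2141 bp member (core 569 bp) placed in its body and was called in all 4 comparisons. It had 1.87, 1.75 and 1.97 FPKM in FP3, 3.85, 6.52 and 4.55 in SP3, then 0.3, 0.24 and 0.27 in FP4 and 1.82, 1.38 and 2 in SP4. SP3 was highest and FP4 lowest, each without overlap with another group. It fell by 1.33 ± 0.20 in FP3 versus SP3 (adjusted p = 0.0026), fell by 2.65 ± 0.18 in FP4 versus SP4 (adjusted p = 5.3e-05), fell by 2.73 ± 0.14 in FP4 versus FP3 (adjusted p = 1.59e-05) and fell by 1.43 ± 0.22 in SP4 versus SP3 (adjusted p = 0.00332).

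LOC_Os01g43950, with the 3927 bp member upstream, behaved differently at each stage, with 23.99, 21.44 and 22.5 FPKM in FP3, 18.24, 17.38 and 12.95 in SP3, then 7.69, 7.4 and 7.42 in FP4 and 17.37, 21.51 and 21.34 in SP4. It was lower in FP4 than in SP4 (−1.40 ± 0.10, adjusted p = 6.47e-05) and in FP4 than in FP3 (−1.55 ± 0.07, adjusted p = 1.01e-05). LOC_Os01g58850, with its 3077 bp member upstream, was higher in FP4 (3.21, 3.59 and 3.69 FPKM) than in SP4 (1.11, 1.29 and 1.15 FPKM; 1.58 ± 0.15, adjusted p = 0.000257). It was lower in SP4 than in SP3, where it had 3.51, 5.29 and 2.96 FPKM (−1.61 ± 0.21, adjusted p = 0.00185). A test of whether the fertile against sterile difference changed between stages called 2 of 43 genes at members, beside 9.87% of all 26392 genes tested.

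The most abundant gene, LOC_Os01g15270 at a 2043 bp member, had 2286.43, 2020.99 and 2016.01 FPKM in FP3, 4556.22, 5489.91 and 2118.75 in SP3, then 764.16, 824.22 and 764.08 in FP4 and 1091.67, 1190.18 and 1231.53 in SP4. P4 libraries were below all P3 libraries of the same type. It fell by 1.38 ± 0.06 in FP4 versus FP3 (adjusted p = 7.6e-06) and by 1.65 ± 0.24 in SP4 versus SP3 (adjusted p = 0.00272), the latter with an adjusted p of 0.123 by limma on log2(FPKM + 1). LOC_Os01g55100 and LOC_Os01g40070, both with the member upstream and the latter listed under plastid, fell in the same comparisons. LOC_Os01g55100 fell by 1.44 ± 0.04 (adjusted p = 2.32e-06) and by 1.17 ± 0.18 (adjusted p = 0.00354). LOC_Os01g40070 fell by 1.45 ± 0.06 (adjusted p = 7.29e-06) and by 1.42 ± 0.17 (adjusted p = 0.00135). LOC_Os02g24628, of the photosynthesis list, was higher in FP4 (123.02, 119.4 and 101.86 FPKM) than in FP3 (58.16, 48.75 and 52.55 FPKM; 1.15 ± 0.08, adjusted p = 5.79e-05).

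LOC_Os01g57968 was placed at the 5058 bp member by a THS annotated in its downstream 2 kb. It had 4.11, 4.55 and 10.05 FPKM in FP3, 14.94, 13.89 and 24.09 in FP4, 0.5, 1.25 and 4.93 in SP3 and 10, 21.09 and 15.76 in SP4. P4 lay above P3 in each type. It was called in FP4 versus FP3 (1.55 ± 0.44, adjusted p = 0.0259) and in SP4 versus SP3 (2.76 ± 0.89, adjusted p = 0.047). Leaving out FP4 replicate 3, FP3 replicate 1 or FP3 replicate 2 ended the former call (1.19 to 1.35, adjusted p up to 0.0822). Leaving out any library other than SP3 replicate 3 ended the latter (2.25 to 2.99, adjusted p 0.0687 to 0.125).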

How the data were processed

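Panicles of both types were profiled at both stages by ATAC-seq (8 libraries) and RNA-seq (12 libraries), and groups were taken from the sample descriptions. The authors aligned ATAC-seq reads to MSU7 with Bowtie2, discarded organelle reads and reads that aligned more than once, called peaks in each library with MACS 1.4.2 and deposited each peak with its score. Reads per peak were not used here, so the depth behind a peak is unknown. For RNA-seq the authors aligned reads with HISAT2 and deposited estimated counts per gene from StringTie as whole numbers (totals of 30.6 to 51.2 M per library), with FPKM values scaled to gene length and library size. A small estimated count can stand for less than 1 read.

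Union regions, overlaps of at least 1 bp and covered bases were computed with bedtools 2.31.1 and Python 3.11.15 (pandas 2.3.3, numpy 2.4.6). Covered bases of regions chosen on one replicate number were compared in libraries of the other by an exact two-sided permutation test within replicate numbers. Tests first planned on covered bases of the members are not reported, since the same peaks chose them. Counts were fitted across all genes with edgeR 4.0.16 in R 4.3.3 (filterByExpr, TMM, glmQLFit, glmQLFTest, Benjamini-Hochberg adjustment), with the libraries of the 2 groups compared. SE was the fold change divided by the root of F. Alternatives used DESeq2 1.42.0, limma 3.58.1, other filters and left-out libraries. The edgeR fit and the merging were tested on simulated data. The study calls the replicates biological and does not say which plants each came from, so p-values measure the spread between these samples.

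Regions named were the 10 longest, the 10 with the widest core and 2 on each side of the length limit. Genes named were the 5 at members with the highest mean FPKM and, per comparison, up to 3 called with the largest and 3 with the smallest fold change, with at least 1 CPM on average and replicates that did not overlap (the rule's parts on gene starts and annotation lists could not be applied). Others were chosen after their values were seen. The members and lists were chosen with earlier results of these data known. No genome, gene positions or descriptions of MSU7 were used here, so lists by annotation words, further cell type markers and base composition of all members were left out. The sample descriptions cover the ChIP-seq libraries too, which were not analysed here. Columns of the authors' own comparisons were not used, and 0 columns lacked a sample.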

Additional observations from a re-analysis of the deposited data

Results flagged for a closer look

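Of the 43 genes at members tested, 2 had a fertile against sterile difference that changed between the stages, by the edgeR test of that change over all 12 libraries. The same test called 9.87% of all 26392 genes tested, so these calls are no trait of the members. For LOC_Os01g43950 the log2 fold change was 0.58 in FP3 versus SP3 and −1.40 in FP4 versus SP4, and the latter minus the former was −1.92 in the joint fit (adjusted p = 8.17e-06). For LOC_Os12g36890 the values were −1.33 and −2.65, with a change of −1.26 (adjusted p = 0.00741). In the first gene the direction turned between stages, and in the second it was the same at both.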

How the results depend on the processing

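The number of members was 3949 with a minimum length of 1500 bp, 237 with 3000 bp and 115 when a single peak of at least 2000 bp was required in every library. Leaving out each library in turn gave 1228 to 1351. The fertile minus sterile difference in mean covered bases of members, a description, was 240.1 bp. It was 248.6 bp with peaks of score 100 or more and 143 bp for members with a core run of at least 1000 bp, a subset chosen after seeing the data. With the replicate block, or within stages, it was 240.1 bp by construction, and without 1 library it ran from 200.9 to 288.4 bp. The P4 minus P3 difference (−41.45 bp) was 3.898 bp for members with a core run of at least 1000 bp, and −124 to 30.87 bp without 1 library. The cause was not tested for any of these. Replicate numbers did not pair the samples: same-numbered libraries had correlated deviations of −0.069 to 0.057 in ATAC-seq and −0.0606 to 0.049 in RNA-seq. In FP3 versus SP3 the 10 called genes became 4 with limma on log2(FPKM + 1) and 6 on log2(FPKM + 0.1), and 10 under the replicate block. With 1 library left out, the count ran from 7 (without FP3 replicate 2) to 15 (without SP3 replicate 3). In the other comparisons every alternative stayed within 1.5 times the count. The median RNA level of 3.70 FPKM was 1.85 with the median over libraries, and 1.51 on the log2(FPKM + 1) scale was 0.96 with a pseudocount of 0.1, as that scale implies. Of 32 fold changes of named genes, 21 kept their call under every alternative run, 11 lost it under 1 or more and 0 reversed. Alternatives that need a genome or gene positions (gene start in or within 1 kb of a member, any overlap, sequence windows) were not run. Read depth per peak is unknown, which limits statements on short or weak peaks.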

Other observations

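Apart from the 1368 members, 105 union regions reached 2000 bp but lacked a peak in 1 or more libraries, and 46 of them had a peak in 7 of the 8.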
